A study of Mus musculus with 16 samples.

Results

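Brevican, neurocan and their partners were described here as a family: 10 genes of the perineuronal and perisynaptic extracellular matrix of the brain, followed by symbol through all 16 deposited libraries. The genes were *Acan*, *Bcan*, *Ncan*, *Vcan*, *Hapln1*, *Hapln4*, *Tnr*, *Tnc*, *Ptprz1* and *Cspg5*, each found once among the 24060 gene rows of every library. They were taken by symbol, with no threshold on a measured value, from a list drawn up with earlier results of these data known.

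The libraries came from the somatosensory cortex of C57BL/6J mice of genotype Aldh1l1CreERT2-RiboTag, aged 3 months. In these mice the promoter of *Aldh1l1*, a gene used to mark astrocytes, drives a Cre recombinase that acts after tamoxifen, and Cre switches a ribosomal protein to an HA-tagged form, so that ribosome-bound RNA can be pulled from the lysate with an antibody against HA. Tamoxifen was given i.p. to all groups at 2 months of age, and the labels place the experiment 4 weeks later, where the methods of the study state 2 weeks after the last injection. The IP libraries hold the RNA of the pulled-down ribosomes and the INPUT libraries hold RNA of the cleared lysate from all cell types. Stressed mice swam for 20 min and recovered for 90 min in the home cage, and naïve mice stayed in the home cage. Both fractions of both kinds of mice were sequenced in 4 libraries each, which are named here by library number. The study used 4 males and 4 females, with 4 mice per group. Each animal was homogenized on its own, and its lysate gave both IP and INPUT. Neither the animal nor the sex behind a library is given, so IP and INPUT were treated as unpaired. Tests that set IP against INPUT therefore leave out the link between libraries of the same mouse. *Xist* was above 100 CPM in 2 libraries and below 1 CPM in the other 2 of every group.

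Hyaluronan, a sugar polymer made at the cell surface, forms the backbone of the brain matrix. Lecticans, the chondroitin sulfate proteoglycans encoded by *Acan*, *Bcan*, *Ncan* and *Vcan*, bind hyaluronan, link proteins of the Hapln family hold that bond in place, and tenascins bridge lecticans to each other. In its densest form this matrix makes perineuronal nets around parvalbumin interneurons, and in a looser form it fills the space around synapses and astrocyte processes. Both neurons and glia secrete its parts, so the fraction in which each transcript is found is informative about which cells hold it. A bulk library cannot tell fewer cells of a type from less RNA per cell. INPUT RNA is also not limited to ribosomes, so IP over INPUT does not compare translation alone.

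Libraries held from 16392876 to 25814364 gene reads. Those on the 10 genes came to 0.831% and 0.807% of the total in IP of naïve and stressed mice and to 0.138% and 0.136% in INPUT. A single library held between 47 reads (*Acan*, stress IP) and 73409 reads (*Ptprz1*, naïve IP) of a member. All 8 astrocyte markers were higher in IP than in INPUT in both naïve and stressed mice, with summed levels of 92703 to 97102 CPM in naïve IP against 5963 to 6344 CPM in naïve INPUT. All 7 neuronal markers (439 to 571 against 10093 to 10600 CPM), all 4 of parvalbumin interneurons (32.6 to 50.7 against 363 to 422 CPM), all 6 of oligodendrocytes (126 to 175 against 1547 to 1706 CPM), all 6 of microglia (19.7 to 25.2 against 238 to 257 CPM) and all 5 of endothelium (9.50 to 13.3 against 50.6 to 81.1 CPM) were lower in naïve IP. Exceptions were *Olig2* among 6 markers of oligodendrocyte precursors and *Pdgfrb* among 4 tested markers of mural cells and fibroblasts, both higher in naïve IP. No marker was at 0 in all libraries of a group.

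The promoters of 4 genes are shown because they pair a lectican and a tenascin gene from each side of the comparison that follows: *Ncan* and *Tnc*, which were higher in IP, and *Acan* and *Tnr*, which were higher in INPUT. The sequences are RefSeq's on GRCm38.p6, read 5′ to 3′ on the strand of the gene, from 250 to 41 bases before its start, 210 bases each. Capitals mark a match on either strand to the SOX motifs ACAAAG and ACAATG, to the NFI recognition motif TTGGCA or to the GC box GGGCGG.
Ncan: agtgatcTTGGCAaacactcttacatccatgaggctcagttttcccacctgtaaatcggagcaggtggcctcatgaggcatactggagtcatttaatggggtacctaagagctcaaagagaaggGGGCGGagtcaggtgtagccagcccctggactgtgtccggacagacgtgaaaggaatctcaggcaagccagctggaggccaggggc
Tnc: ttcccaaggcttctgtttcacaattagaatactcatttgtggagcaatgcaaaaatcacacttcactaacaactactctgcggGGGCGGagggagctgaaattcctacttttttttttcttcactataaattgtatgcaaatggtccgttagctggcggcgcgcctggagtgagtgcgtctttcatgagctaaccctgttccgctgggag
Acan: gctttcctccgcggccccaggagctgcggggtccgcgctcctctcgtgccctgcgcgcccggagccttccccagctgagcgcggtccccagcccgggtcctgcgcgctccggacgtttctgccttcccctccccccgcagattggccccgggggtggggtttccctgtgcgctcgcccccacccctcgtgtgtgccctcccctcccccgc
Tnr: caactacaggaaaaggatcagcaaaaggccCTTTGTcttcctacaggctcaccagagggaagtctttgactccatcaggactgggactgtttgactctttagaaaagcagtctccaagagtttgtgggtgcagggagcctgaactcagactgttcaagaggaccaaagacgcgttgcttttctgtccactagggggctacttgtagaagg

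The windows lay at chr8:70120885-70121094 (minus strand) for *Ncan*, chr4:64047056-64047265 (minus) for *Tnc*, chr7:79052976-79053185 (plus) for *Acan* and chr1:159523519-159523728 (plus) for *Tnr*. *Ncan* held 1 NFI motif and 1 GC box, *Tnc* 1 GC box, *Tnr* 1 match to ACAAAG (as CTTTGT) and *Acan* none of the 4 motifs. Among the 32851 RefSeq promoter windows of the same length, ACAAAG was found in 14.2%, ACAATG in 9.42%, TTGGCA in 10.8% and GGGCGG in 26.7%, so each match was of a common kind. The windows differed more in base composition: G and C made up 76.2% of *Acan*, 54.8% of *Ncan*, 49.5% of *Tnr* and 46.2% of *Tnc*, against a median of 51.9% over all windows. RefSeq entries were found for 8 of the 10 genes, with none for *Hapln4* and *Cspg5*.

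The first question was which of the matrix genes were higher in astrocyte ribosome-bound RNA than in the RNA of the cortex as a whole. In naïve mice 6 of the 10 genes (*Ptprz1*, *Bcan*, *Tnc*, *Ncan*, *Hapln1* and *Cspg5*) were higher in IP than in INPUT, 3 (*Hapln4*, *Tnr* and *Acan*) were lower, and *Vcan* did not pass the test. The comparison used limma on log2(CPM + 0.1) with a Benjamini-Hochberg adjusted p under 0.05, and 87.7% of the 13339 genes tested passed it (23.7% higher and 64.0% lower), so passing was common and the direction and size are the more informative values. The median log2 fold change was 2.04 over the 10 genes and −0.64 over all genes tested. Libraries were scaled to their totals here. Scaling by the median ratio sets the median of all genes near 0 by construction (−0.00053), and with it the share of higher genes among those called was 49.8% in place of 27.0%.

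**Figure D1:**
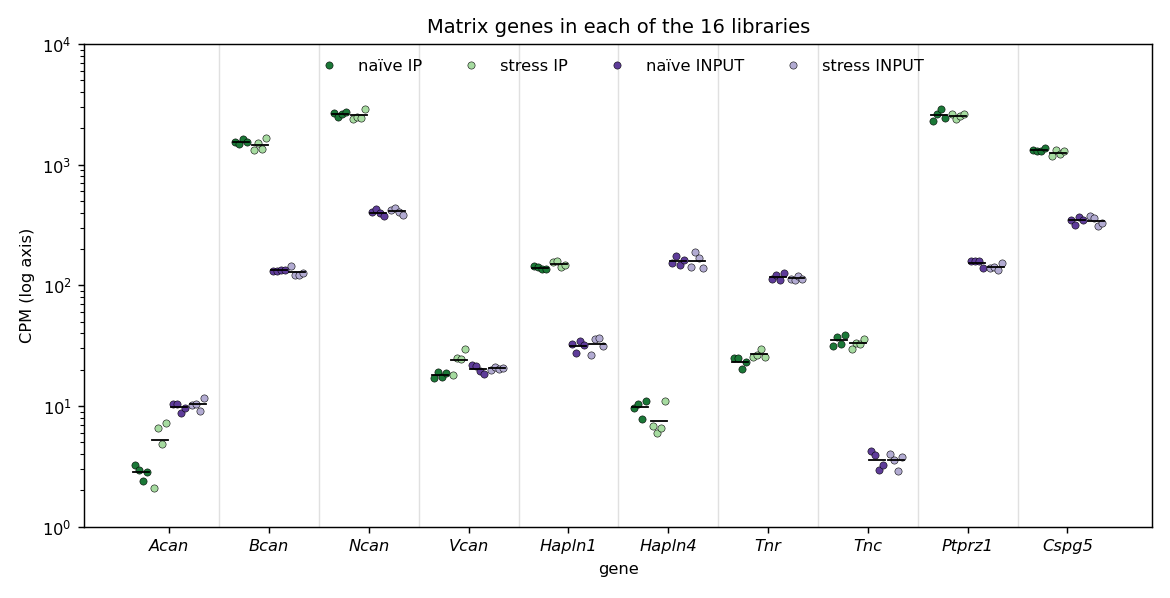
CPM (log axis) of the 10 genes in each of the 16 libraries, 1 point per library and a bar at the mean of 4. Green points (IP) lie above purple points (INPUT) for *Bcan*, *Ncan*, *Hapln1*, *Tnc*, *Ptprz1* and *Cspg5*, below them for *Acan*, *Hapln4* and *Tnr*, and among them for *Vcan*, which held 17.1 to 29.5 CPM in IP and 18.6 to 22.0 CPM in INPUT.

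Among the lecticans, *Bcan* (chromosome 3 of GRCm38, 87987531 to 88000230) encodes brevican, the smallest of them and one made in the adult brain. Its level in naïve IP was 1553, 1488, 1632 and 1539 CPM in replicates 2, 8, 11 and 13. In naïve INPUT it was 132.8, 132.5, 133.9 and 133.2 CPM in replicates 3, 7, 14 and 16. The groups were far apart and the INPUT libraries nearly equal (SD 0.598 CPM, n = 4), and IP exceeded INPUT 11.7-fold (log2 3.54, standard error 0.05, adjusted p = 6.31e-15 by limma). By log2 fold change *Bcan* was at place 76 from the highest of the 13339 genes tested.

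*Ncan* (chromosome 8, 70093085 to 70120873) encodes neurocan. It had 2684, 2506, 2652 and 2744 CPM in naïve IP and 402.6, 428.7, 398.0 and 377.0 CPM in naïve INPUT. All 4 IP values lay above all INPUT values, by 6.59-fold in the means (log2 2.72, standard error 0.05, adjusted p = 3.27e-14 by limma). Its log2 fold change ranked at place 380 from the highest of the 13339 genes.

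*Acan* (chromosome 7, 79053483 to 79115099) encodes aggrecan, a core component of perineuronal nets. It had 3.23, 2.96, 2.39 and 2.87 CPM in naïve IP, against 10.3, 10.4, 8.83 and 9.61 CPM in naïve INPUT. The INPUT level was 3.43-fold the IP level with no overlap (log2 IP over INPUT −1.75, standard error 0.13, adjusted p = 2.18e-08 by limma). These IP values rested on 61 to 74 reads per library.

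*Vcan* (chromosome 13, 89655312 to 89742509) encodes versican, the largest lectican, which is made by oligodendrocyte precursors among other cells. Its level was 17.1, 19.2, 17.3 and 18.8 CPM in naïve IP and 22.0, 21.7, 19.6 and 18.6 CPM in naïve INPUT, so the groups overlapped. The log2 fold change of −0.17 (95% CI −0.35 to 0.0098) did not pass the test (adjusted p = 0.069 by limma), although it did without INPUT replicate 16 (−0.22, adjusted p = 0.039). Relative to other genes the sign turned: after scaling by the median ratio *Vcan* was higher in IP, with a log2 of 0.47 (adjusted p = 0.00019 by limma).

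Link proteins split between the fractions. *Hapln1* (chromosome 13, 89539796 to 89611652), which stabilizes the bond of lecticans to hyaluronan, had 145.3, 141.4, 137.6 and 136.7 CPM in naïve IP and 32.6, 27.4, 34.7 and 32.1 CPM in naïve INPUT. Its values did not overlap, and IP was 4.42-fold INPUT (log2 2.15, standard error 0.07, adjusted p = 3.16e-12 by limma). *Hapln4* (chromosome 8, 70083457 to 70090862), the brain link protein found with brevican at inhibitory synapses, had 9.69, 10.5, 7.87 and 11.0 CPM in naïve IP and 153.8, 176.1, 146.8 and 161.7 CPM in naïve INPUT. It was 16.3-fold higher in INPUT (log2 IP over INPUT −4.02, standard error 0.10, adjusted p = 1.73e-13 by limma), which placed it 214 from the lowest of the 13339 genes. That value lay within the ranges of the neuronal (−4.74 to −3.88), parvalbumin interneuron (−5.11 to −2.77), oligodendrocyte (−4.38 to −3.06) and microglial markers (−4.47 to −2.74) alike.

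Tenascins split in the same manner. *Tnc* (chromosome 4, 63959785 to 64047015) encodes tenascin-C, a glycoprotein of the developing and injured brain, and had 31.7, 37.3, 32.7 and 39.1 CPM in naïve IP against 4.24, 3.94, 2.94 and 3.25 CPM in naïve INPUT. The IP level was 9.79-fold the INPUT level without overlap (log2 3.26, standard error 0.13, adjusted p = 1.55e-11 by limma). *Tnr* (chromosome 1, 159523769 to 159931729) encodes tenascin-R, which cross-links lecticans in perineuronal nets and is made by oligodendrocytes and some neurons. It had 25.1, 25.0, 20.2 and 23.0 CPM in naïve IP and 113.3, 120.9, 111.4 and 126.3 CPM in naïve INPUT. *Tnr* was 5.05-fold higher in INPUT (log2 IP over INPUT −2.34, standard error 0.08, adjusted p = 3.06e-12 by limma), a smaller difference than that of any marker in those 4 lists. It lay within the ranges of the markers of oligodendrocyte precursors (−3.54 to 1.22) and endothelium (−3.89 to −1.91), and below that of mural cells and fibroblasts (−1.60 to 2.37). In the annotation exons of *Tnr* and *Tnc* overlap a noncoding gene on the other strand, and whether the counting used strand is not given in the sources used here.

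The membrane-bound chondroitin sulfate proteoglycans were both higher in IP. *Ptprz1* (chromosome 6, 22875502 to 23052916), a receptor tyrosine phosphatase whose secreted form is phosphacan, had 2295, 2639.6, 2875 and 2454 CPM in naïve IP and 159.6, 158.4, 158.6 and 139.8 CPM in naïve INPUT. The means differed 16.7-fold (log2 4.05, standard error 0.07, adjusted p = 1.41e-14 by limma), at place 10 from the highest of all genes tested. *Cspg5* (chromosome 9, 110243783 to 110262576), the transmembrane proteoglycan neuroglycan C, had 1314, 1292, 1286 and 1384 CPM in naïve IP and 349.5, 315.5, 368.2 and 350.3 CPM in naïve INPUT. IP exceeded INPUT 3.81-fold with no overlap (log2 1.93, standard error 0.06, adjusted p = 8.22e-13 by limma). Against the 8 astrocyte markers, whose log2 fold changes ran from 3.42 to 4.13, *Ptprz1* and *Bcan* lay inside the range and *Tnc*, *Ncan*, *Hapln1* and *Cspg5* below it.

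For each of the 9 called genes the 4 IP values lay on one side of the 4 INPUT values, as they did for 83.7% of all genes tested, and the exact two-sided permutation test gave p = 0.0286, the smallest that 70 labelings allow. *Vcan* had an exact permutation p of 0.0857.

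In stressed mice IP and INPUT were compared anew, in other libraries. The same 6 genes were higher in IP and the same 3 lower, and 86.1% of 13333 genes passed the test (23.6% higher and 62.5% lower). The 6 higher genes had log2 fold changes of 4.16 for *Ptprz1*, 3.51 for *Bcan*, 3.18 for *Tnc*, 2.64 for *Ncan*, 2.22 for *Hapln1* and 1.88 for *Cspg5*, with standard errors from 0.06 to 0.12. *Hapln4* was lower in IP by a log2 of −4.41 (standard error 0.17) and *Tnr* by −2.09 (standard error 0.07). The 4 IP and 4 INPUT values of these 8 genes and of *Acan* did not overlap, as for 81.4% of all genes tested, and the order of the 10 genes by log2 fold change was that of the naïve mice.

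*Acan* had the largest standard error of the 10 genes, and *Vcan* had the estimate nearest to 0. *Acan* was lower in stress IP by a log2 of −1.11 (standard error 0.31, adjusted p = 0.0047 by limma), a value that was −0.73 without stress IP replicate 4. After scaling by the median ratio *Acan* did not pass (log2 −0.48, adjusted p = 0.16 by limma). *Vcan* had a log2 of 0.21 (95% CI −0.060 to 0.49, adjusted p = 0.13 by limma) and passed without stress IP replicate 4 (0.35, adjusted p = 0.0041) and after scaling by the median ratio (0.84, adjusted p = 6.15e-05 by limma).

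**Figure D2:**
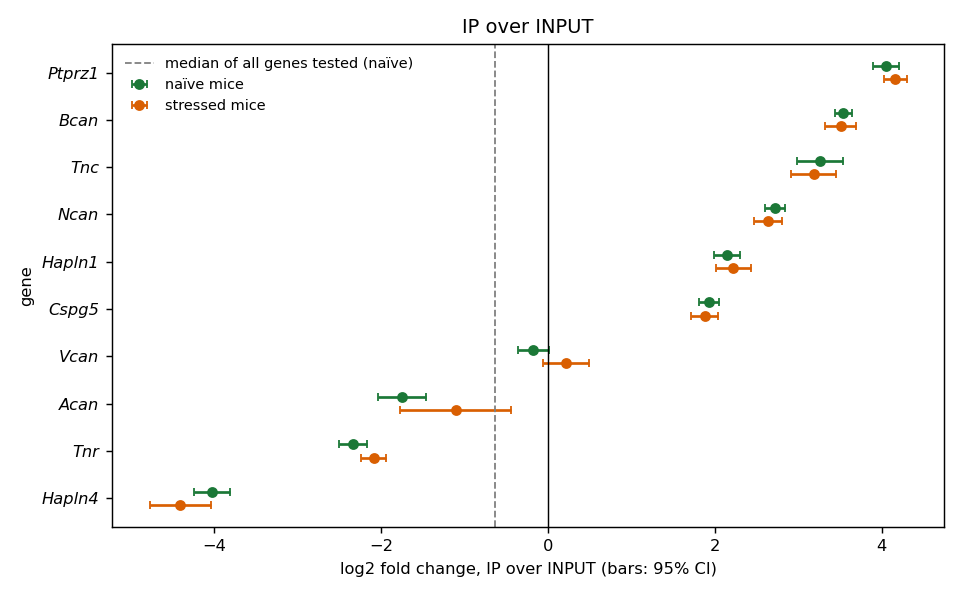
Log2 fold change of IP over INPUT on log2(CPM + 0.1) for the 10 genes in naïve (green) and stressed (orange) mice, with 95% confidence intervals from limma (4 against 4 libraries). The genes ran from *Ptprz1* at 4.05 to *Hapln4* at −4.02 in naïve mice, and the dashed line marks the median of all genes tested there, −0.64.

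Each lectican gene has a link protein gene as its neighbour, with no protein-coding gene between them in the annotation (GENCODE M21, GRCm38), and neighbours could differ in fraction. *Ncan* and *Hapln4* face each other on opposite strands of chromosome 8 with 2222 bases between their ends, and *Ncan* was higher in IP (log2 2.72) while *Hapln4* was higher in INPUT (−4.02). *Bcan* lies 21519 bases from *Hapln2*, a link protein of oligodendrocytes on the same strand, which was lower in IP (log2 −2.01, standard error 0.23) where *Bcan* was higher. *Acan* ends 2 bases from *Hapln3* on the other strand, and *Hapln3* was higher in IP (log2 1.40, standard error 0.22, means of 1.95 and 0.674 CPM) where *Acan* was lower. *Vcan* and *Hapln1*, 43659 bases apart, had log2 values of −0.17 and 2.15. With 8 genes at 4 loci no test of neighbourhood was made.

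**Figure D3:**
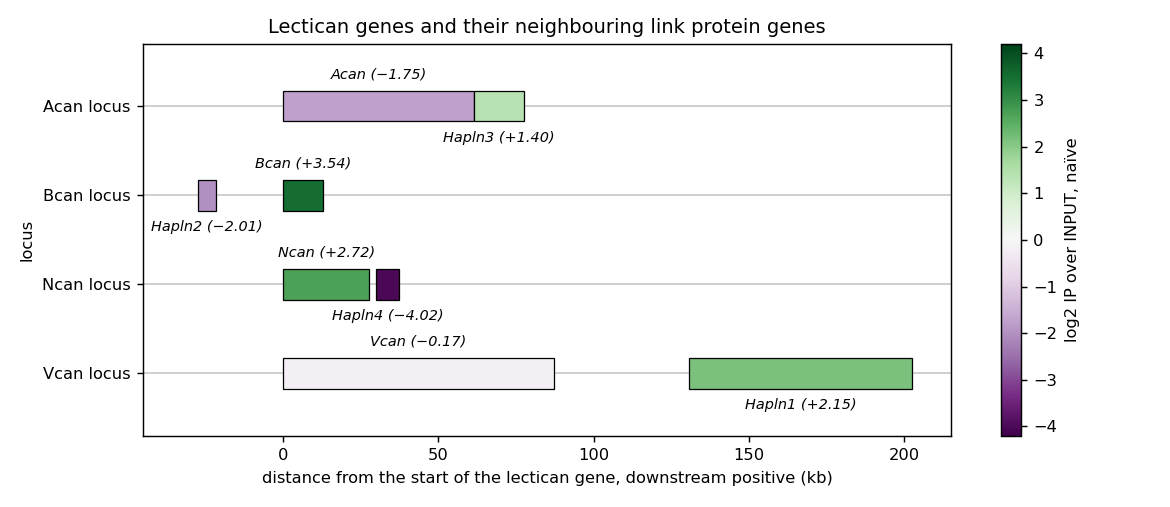
The 4 lectican genes and the neighbouring link protein genes, drawn to scale by distance (kb) from the start of the lectican gene, with downstream positive, and coloured by the log2 fold change of IP over INPUT in naïve mice, also printed beside each name. At each of the *Acan*, *Bcan* and *Ncan* loci the neighbours had opposite signs.

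Per length of exon, which allows genes to be compared within a group, *Bcan* (382 ± 14.7 CPM per kb, SD, n = 4) and *Ncan* (368 ± 14.0 CPM per kb) led in naïve IP and overlapped each other. *Ptprz1* (180.1 ± 17.5 CPM per kb), *Cspg5* (131 ± 4.47 CPM per kb), *Hapln1* (23.8 ± 0.672 CPM per kb), *Tnc* (4.53 ± 0.457 CPM per kb), *Hapln4* (2.49 ± 0.352 CPM per kb), *Tnr* (1.81 ± 0.177 CPM per kb), *Vcan* (1.25 ± 0.0705 CPM per kb) and *Acan* (0.383 ± 0.0469 CPM per kb) followed without overlap between neighbours. The levels spanned 998-fold in naïve IP and 121-fold in naïve INPUT. In stress IP the order differed in *Tnr* (2.08 ± 0.154 CPM per kb), which came before *Hapln4* (1.94 ± 0.580 CPM per kb). There *Tnr* overlapped *Hapln4*, and *Hapln4* overlapped *Vcan* (1.68 ± 0.324 CPM per kb). With the longest transcript as the length, the order in naïve IP was the same, but the means were 494 (*Bcan*), 368 (*Ncan*) and 318 CPM per kb (*Ptprz1*). How near these genes lie to each other therefore depends on the length used.

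In naïve INPUT *Ncan* (55.8 ± 2.95 CPM per kb) came first and *Hapln4* (40.7 ± 3.20 CPM per kb) second, ahead of *Cspg5* (34.3 ± 2.19 CPM per kb) and *Bcan* (32.8 ± 0.147 CPM per kb), which overlapped. *Ptprz1* (10.8 ± 0.673 CPM per kb) and *Tnr* (9.17 ± 0.536 CPM per kb) overlapped too, *Hapln1* had 5.37 ± 0.520 CPM per kb, *Vcan* (1.41 ± 0.113 CPM per kb) and *Acan* (1.31 ± 0.0994 CPM per kb) overlapped, and *Tnc* was last with 0.462 ± 0.0770 CPM per kb. The order in stress INPUT was the same, with *Hapln4* and *Cspg5* overlapping as well. With the longest transcript as the length, *Cspg5* (44.0 CPM per kb) and *Hapln4* (43.8 CPM per kb) changed places in naïve INPUT.

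The CPM ratio of a pair of genes within a library is free of the scaling between libraries. It holds the lengths of both genes, which cancel when the fractions are compared. The ratio of *Hapln1* to *Hapln4* was 14.5 in naïve IP (12.4 to 17.5 over the 4 libraries), whereas that of *Hapln4* to *Hapln1* was 5.04 in naïve INPUT (4.23 to 6.42). The ratio of *Tnc* to *Tnr* was 1.51 in naïve IP (1.26 to 1.70), and that of *Tnr* to *Tnc* was 33.1 in naïve INPUT (26.7 to 38.8). *Ptprz1* over *Cspg5* gave 1.94 in naïve IP (1.75 to 2.24) and *Cspg5* over *Ptprz1* gave 2.24 in naïve INPUT (1.99 to 2.51). These 3 pairs changed places between the fractions, in CPM and also in the CPM per kb given above.

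The CPM ratio of *Bcan* to *Acan* was 546 in naïve IP (481 to 683) and 13.6 in naïve INPUT (12.7 to 15.2). That of *Ncan* to *Vcan* was 146 in naïve IP (131 to 157) and 19.7 in naïve INPUT (18.3 to 20.3). For all 5 pairs the ranges of naïve IP and naïve INPUT did not overlap, and the same held in stressed mice. After stress the ratio of *Bcan* to *Acan* in IP was 309 (228 to 630) and that of *Ncan* to *Vcan* was 107 (97.8 to 134), and both ranges overlapped those of naïve IP.

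Of the summed CPM per kb of the 4 lecticans, *Bcan* made up 50.8% ± 0.981 and *Ncan* 48.9% ± 0.974 in naïve IP (SD, n = 4), leaving 0.167% ± 0.0139 to *Vcan* and 0.0511% ± 0.00702 to *Acan*. In naïve INPUT *Ncan* made up 61.1% ± 1.22, *Bcan* 35.9% ± 1.28, *Vcan* 1.55% ± 0.0886 and *Acan* 1.44% ± 0.0925. Like the levels per kb, these shares depend on the length used for each gene. The *Acan* share in stress IP was 0.0955% ± 0.0371, with a range of 0.0424 to 0.123% that overlapped that of naïve IP (0.0414 to 0.0572%).

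**Figure D4:**
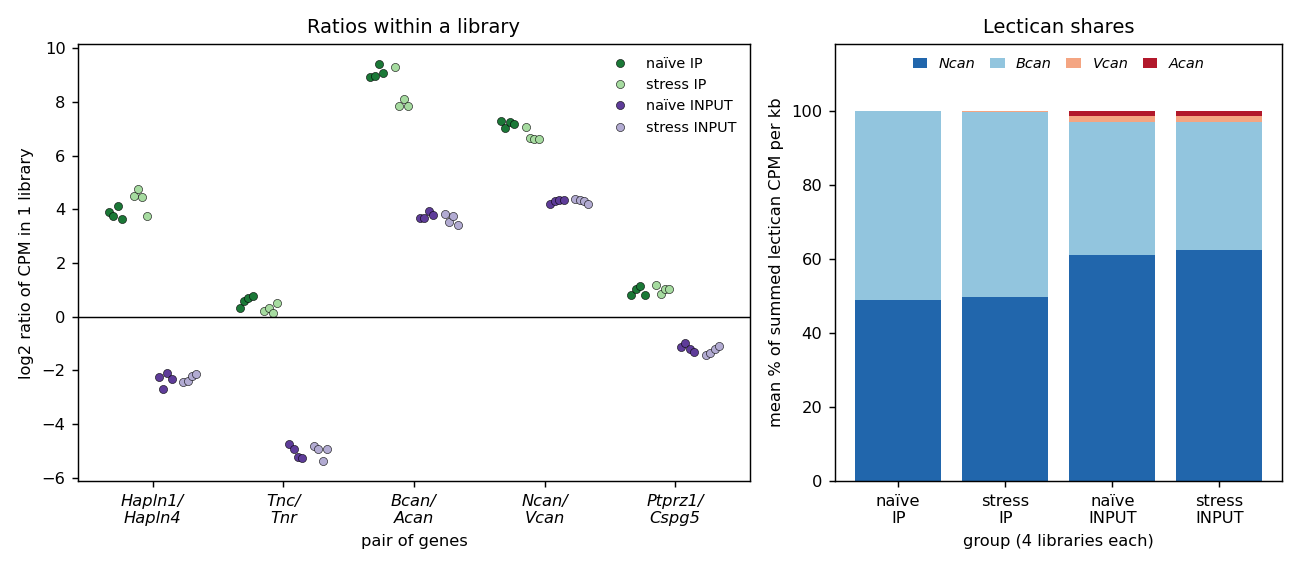
Left, the log2 ratio of CPM between paired genes in each of the 16 libraries. Right, the mean share (%) of each lectican in their summed CPM per kb of exon, 4 libraries per group. *Hapln1* and *Hapln4*, *Tnc* and *Tnr*, and *Ptprz1* and *Cspg5* lie on opposite sides of 0 in IP and INPUT, and *Acan* and *Vcan* are hardly visible in the IP bars, where they held 0.0511% and 0.167% in naïve mice.

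The second question was whether a swim with 90 min of recovery altered these genes. In IP none of the 10 passed the test (limma with Benjamini-Hochberg adjustment, 0 also with limma-voom on recovered reads), where 0.44% of 12501 genes did. An unadjusted p under 0.05 was reached by 3 members (*Acan*, *Vcan* and *Tnr*), against 8.27% of all genes tested. The median log2 fold change was −0.030 over the 10 genes and −0.0036 over all genes.

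*Acan* had 2.10, 6.61, 4.88 and 7.27 CPM in stress IP replicates 4, 5, 6 and 15, against 2.39 to 3.23 CPM in naïve IP. Of the stress libraries, 3 were above all naïve values and replicate 4 was below them, so the groups overlapped. The log2 fold change was 0.71 (95% CI 0.019 to 1.40, unadjusted p = 0.045, adjusted p = 0.59 by limma, exact permutation p = 0.143). It was 1.09 without stress IP replicate 4 (adjusted p = 0.057 by limma) and 0.51 without replicate 15, and these libraries held 47 to 181 *Acan* reads.

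*Vcan* followed the same libraries, with 18.1, 24.9, 24.7 and 29.5 CPM in stress IP replicates 4, 5, 6 and 15 against 17.1 to 19.2 CPM in naïve IP. Replicate 4, which was below the naïve range for *Acan*, lay inside it for *Vcan*, and the other 3 lay above it. The log2 fold change was 0.40 (95% CI 0.12 to 0.68, unadjusted p = 0.0088, adjusted p = 0.36 by limma, exact permutation p = 0.0857), and 0.53 without replicate 4 (adjusted p = 0.065 by limma).

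*Tnr* was the sole member whose groups did not overlap in IP, which 5.0% of all genes tested also showed. It had 25.6, 26.6, 29.6 and 25.3 CPM in stress IP, above naïve IP replicates 2, 8, 11 and 13 at 25.1, 25.0, 20.2 and 23.0 CPM. The nearest values were 25.3 and 25.1 CPM, and the log2 fold change was 0.20 (95% CI 0.0041 to 0.39, unadjusted p = 0.046, adjusted p = 0.59 by limma, exact permutation p = 0.0286). Without naïve IP replicate 11, the lowest, it was 0.13.

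*Hapln4* had 6.87, 6.02, 6.53 and 11.0 CPM in stress IP, and replicate 15 lay within the naïve range of 7.87 to 11.0 CPM while the other 3 were below it. The log2 fold change was −0.39 (95% CI −0.79 to 0.0069, adjusted p = 0.62 by limma). Without replicate 15 it was −0.58 (adjusted p = 0.077 by limma). Levels of *Hapln1* were 156.2, 160.7, 142.2 and 146.7 CPM in stress IP against 136.7 to 145.3 CPM in naïve IP, with replicate 6 inside the naïve range (log2 0.11, 95% CI −0.013 to 0.23, adjusted p = 0.67 by limma).

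The other 5 members had estimates nearer to 0. *Ptprz1* had 2628, 2393, 2519 and 2636 CPM in stress IP (log2 −0.0083, 95% CI −0.17 to 0.15), *Ncan* 2412, 2491, 2414 and 2919 CPM (−0.052, 95% CI −0.21 to 0.10) and *Bcan* 1321, 1509, 1351 and 1662 CPM (−0.094, 95% CI −0.26 to 0.070). *Cspg5* had 1173, 1321, 1234 and 1305 CPM (−0.069, 95% CI −0.19 to 0.056) and *Tnc* 29.9, 33.2, 32.9 and 36.1 CPM (−0.089, 95% CI −0.28 to 0.10). Each of these 5 overlapped its naïve IP values, and the adjusted p by limma was at least 0.795. The intervals bound the differences and do not show equality.

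No marker list held a gene that passed the test between stress IP and naïve IP, but some summed levels lay apart. In stress IP against naïve IP 6 of 7 neuronal markers had a log2 fold change below 0, with summed levels of 361 to 515 CPM against 439 to 571 CPM. The summed level of 6 markers of oligodendrocyte precursors was 45.3 to 55.1 CPM against 61.0 to 108 CPM, and all 5 tested were below 0. The largest part of this sum was *Olig2*, the marker of this list that was higher in IP. Its means were 29.5 CPM in stress IP and 61.7 CPM in naïve IP (log2 −0.97). The others tested had log2 fold changes from −0.25 to −0.20. The endothelial sum was 7.35 to 9.37 against 9.50 to 13.3 CPM, with both tested markers below 0. The other 3 endothelial markers did not exceed a mean of 1 CPM and were not tested. Neither this sum nor that of the precursors overlapped between the groups, and 5.0% of single genes tested did not overlap either. All 3 tested markers of parvalbumin interneurons were below 0 (sums of 27.3 to 37.2 against 32.6 to 50.7 CPM), where the estimate of *Acan* was above 0. In the other lists the markers below 0 were 4 of 6 tested for oligodendrocytes (134 to 202 against 126 to 175 CPM). For microglia they were 4 of 5 (18.3 to 31.2 against 19.7 to 25.2 CPM) and for astrocytes 3 of 8. For mural cells and fibroblasts they were 3 of 4 (111 to 155 against 141 to 173 CPM). The largest part of that last sum was *Pdgfrb*, with means of 112 CPM in stress IP and 132 CPM in naïve IP. The astrocyte sum was lowest in stress IP replicate 15 (89533 CPM) and highest in replicate 4 (100856 CPM), with replicate 5 (90298.5 CPM) close to the lowest. Among the stressed, replicates 15 and 4 had the highest and lowest *Acan* and *Vcan*. The largest part of the astrocyte sum was *Slc1a2*, with means of 68539 CPM in stress IP and 70368 CPM in naïve IP. In stress INPUT against naïve INPUT no marker passed either. All 5 endothelial markers were below 0 there (42.3 to 62.9 against 50.6 to 81.1 CPM). So were all 6 of oligodendrocyte precursors (149 to 174 against 164 to 179 CPM). The other lists had 5 of 6 below 0 for oligodendrocytes, 4 of 6 for microglia and 4 of 5 for mural cells and fibroblasts. Neurons had 4 of 7, astrocytes 5 of 8 and parvalbumin interneurons 1 of 4. No marker was at 0 in a group, and the part of other cells in the values of *Acan*, *Vcan*, *Tnr* and *Hapln4* was not tested.

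**Figure D5:**
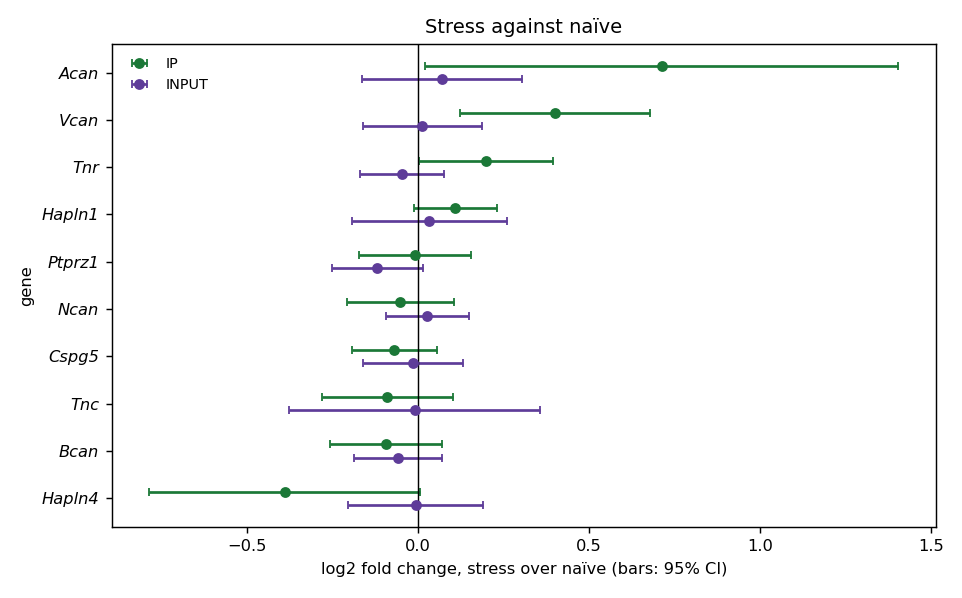
Log2 fold change of stress over naïve on log2(CPM + 0.1) for the 10 genes in IP (green) and INPUT (purple), with 95% confidence intervals from limma (4 against 4 libraries). The IP intervals of *Acan*, *Vcan* and *Tnr* lie above 0 before adjustment for the 12501 genes tested, and all 10 INPUT intervals include 0.

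In INPUT none of the 10 passed (limma, 0 also with limma-voom, 0 at an unadjusted p under 0.05), where 0.0442% of 13577 genes passed and 5.03% had an unadjusted p under 0.05. The log2 fold changes ran from −0.12 for *Ptprz1* to 0.071 for *Acan*. *Ptprz1* had 138.9, 142.7, 132.8 and 153.3 CPM in stress INPUT replicates 1, 9, 10 and 12 against 139.8 to 159.6 CPM in naïve INPUT, and the groups overlapped (95% CI −0.25 to 0.014, exact permutation p = 0.0857). *Acan*, which gave the largest estimate in IP, had 10.1, 10.4, 9.08 and 11.6 CPM in stress INPUT against 8.83 to 10.4 CPM (95% CI −0.16 to 0.31). *Vcan* had 19.9, 21.2, 20.4 and 20.9 CPM against 18.6 to 22.0 CPM (log2 0.013, 95% CI −0.16 to 0.19).

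No member's groups were free of overlap in INPUT, where those of 2.87% of all genes were. Stress INPUT levels were 121 to 144 CPM for *Bcan*, 381 to 435 CPM for *Ncan*, 26.5 to 36.4 CPM for *Hapln1*, 139.5 to 189 CPM for *Hapln4*, 110.1 to 120.6 CPM for *Tnr*, 2.88 to 4.03 CPM for *Tnc* and 308 to 372 CPM for *Cspg5*. *Tnc* had the widest interval of these (−0.38 to 0.36), with 63 to 84 reads per library.

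The stress effects in IP and INPUT were then compared by an interaction over the 16 libraries, and none of the 10 genes passed (limma, 0 also with limma-voom), where 0.0225% of 13341 genes did. An unadjusted p under 0.05 was reached by *Vcan* (difference in log2 0.39, 95% CI 0.061 to 0.71) and *Tnr* (0.25, 95% CI 0.029 to 0.46), against 4.71% of all genes tested. Their unadjusted p by limma was 0.022 and 0.029, and the adjusted p of *Vcan* was 0.98. For *Acan* the difference was 0.64 with a wide interval (95% CI −0.12 to 1.40).

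The rest of the matrix pathway was read from lists of 67 further genes in 6 roles, of which 62 were tested in naïve mice, with 29 higher in IP, 30 lower and 3 not passing. Among all genes tested 87.7% passed, 23.7% higher and 64.0% lower, which is the share to set beside these counts and those by role. The median log2 fold change was −0.28 over these and −0.64 over all genes tested. For 6 of the 62 tested, called or not, a log2 fold change below 0 turned to above 0 after scaling by the median ratio. Among genes that make, cut or bind hyaluronan, 6 of 8 were tested, 2 were higher and 3 lower. *Hyal1*, a hyaluronidase (log2 3.24, 28.1 against 2.90 CPM), and *Cd44*, the hyaluronan receptor (2.30, 15.3 against 3.04 CPM), were higher in IP. *Has3*, a hyaluronan synthase (−2.88, 0.396 against 3.41 CPM), and *Cemip*, which takes part in hyaluronan breakdown (−2.17, 6.54 against 29.9 CPM), were lower.

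Enzymes that build or sulfate the chondroitin chains of the lecticans were tested in 15 of 16 cases, with 5 higher and 10 lower in naïve IP. *Chst11*, a 4-O-sulfotransferase, and *Xylt1*, which starts the chain on the core protein, were higher (log2 1.47 and 1.38, means of 151 and 78.2 CPM in naïve IP). *Chsy3*, a chain-extending synthase, and *Chst15*, which adds a further sulfate, were lower (−2.95 and −2.75). Of proteases that cut lecticans and their inhibitors 10 of 12 were tested, with 5 higher and 5 lower. The inhibitors *Timp3* (log2 2.96, 828 against 106 CPM) and *Timp4* (2.74, 125 against 18.5 CPM) led the first and the proteases *Adamts8* (−3.62) and *Adamts4*, an aggrecanase (−2.78), the second.

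Receptors and partners of the members were tested in 12 of 12 cases, with 6 higher and 6 lower. *Mdk*, midkine, a ligand of *Ptprz1* (log2 2.59, 43.8 against 7.30 CPM), and *Itgav*, an integrin subunit (2.12), were higher in IP, and *Rtn4rl1* and *Rtn4r*, Nogo receptor genes (−4.06 and −3.69), were lower. Of other proteoglycans all 17 were tested, with 10 higher, 5 lower and 2 not passing. The glypican genes *Gpc5* (log2 3.62, 642 against 52.3 CPM) and *Gpc6* (3.26) led, and *Cspg4* (−1.53), which encodes NG2, and *Dcn* (−1.29), decorin, were lowest. In stressed mice 29 of 61 tested were higher and 31 lower, with *Ust* (−2.94) in place of *Chst15* and *Rtn4rl2* (−4.16) in place of *Rtn4r* among the named.

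In the stress comparisons none of the 58 list genes tested in IP and none of the 60 tested in INPUT passed (limma). An unadjusted p under 0.05 was reached by 3 of 58 and 4 of 60, against 8.27% and 5.03% of all genes tested. The smallest p in IP belonged to *Adamts1*, a lectican-cleaving protease, with 14.5 to 28.1 CPM in stress IP against 28.5 to 48.4 CPM in naïve IP, which did not overlap, as for 5.0% of all genes (log2 −0.98, standard error 0.23, adjusted p = 0.13 by limma). In INPUT it belonged to *Adamts4*, with 6.04 to 8.17 CPM against 8.43 to 10.0 CPM (log2 −0.49, standard error 0.12, adjusted p = 0.36 by limma).

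The other genes of smallest p in IP were *Hapln3* (log2 0.60) and *Hapln2* (−0.22), *Cemip* (−0.39) and *Hyal2* (−0.19), *Ust* (−0.38) and *Chsy3* (−0.25), *Adamts9* (0.37), *Nfasc* (−0.18) and *Rtn4rl2* (−0.34), and *Sdc3* (−0.12) and *Gpc1* (−0.14). Each had an adjusted p by limma of at least 0.476. Groups also did not overlap for *Ust*, a uronyl sulfotransferase (2.86 to 3.93 CPM in stress IP against 4.30 to 4.70 CPM in naïve IP), and *Adamts9*, a protease (11.8 to 13.1 against 6.12 to 11.6 CPM). *Hapln3*, which ends 2 bases from *Acan*, had 1.69 CPM in its lowest stress IP library, inside the naïve IP range of 1.61 to 2.25 CPM. In INPUT the corresponding genes were *Hapln2* (−0.057), *Hyal2* (0.26) and *Cemip* (−0.15), *Dse* (0.24) and *Chsy1* (−0.10), *Timp3* (0.15), *Rtn4rl2* (0.16) and *Ptprs* (−0.071), and *Dcn* (0.28) and *Gpc1* (0.15), with adjusted p by limma of at least 0.947.

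Genes with the most similar pattern over the 16 libraries were found among 13341 genes with a mean above 1 CPM, by the root mean square difference of log2(CPM + 0.1) after each gene's own mean was taken off. No member had another member among its nearest 2. *Bcan* was nearest to *Mlc1* (0.0661) and *Axl* (0.0927), *Ncan* to *Gna13* (0.0892) and *Mid1ip1* (0.0914), and *Ptprz1* to *Slc1a2* (0.0981), the main astrocytic glutamate transporter, and *Plxnb1* (0.105). *Cspg5* had the closest neighbours of all, *Ltbr* (0.0523) and *Fbxo2* (0.0604).

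*Hapln1* was nearest to *Agpat5* (0.102) and *Mut* (0.108), *Tnc* to *Scd1* (0.122) and *Sardh* (0.127), *Vcan* to *Abhd17b* (0.143) and *Cdk13* (0.153), and *Tnr* to *Erc2* (0.104), a presynaptic active zone gene, and *Cyb5r4* (0.106). *Hapln4* was nearest to *Ipcef1* (0.162) and *Snap91* (0.165), which encodes a clathrin adaptor of synaptic vesicles. *Acan* had the farthest neighbours, *Tle6* (0.304) and *Rpl31* (0.328), at 1.66 and 2.28 CPM in naïve IP. These distances are descriptions over 16 libraries that share 2 fractions, and the difference between fractions sets most of each pattern.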

How the data were processed

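RNA was sequenced in 16 samples, 8 of IP and 8 of INPUT. Per the methods and labels, the authors aligned paired reads to mm10 with STAR, counted uniquely mapped fragments on RefSeq genes with HTSeq and deposited log2 CPM per gene. The floor shared by the tables was removed, and 100% of values then gave whole reads (within 0.1 read). CPM was recomputed without gene length or further scaling between libraries. Comparisons used limma 3.58.1 in R 4.3.3 with a mean-variance trend and a pseudocount of 0.1 CPM before the log2, kept genes whose mean exceeded 1 CPM, and called an adjusted p (Benjamini-Hochberg) under 0.05. The pseudocount understates changes of low genes. Single members also had an exact two-sided permutation test over 70 labelings. Exon lengths and coordinates came from GENCODE M21 (94.8% of symbols found). Plots were drawn with matplotlib 3.10.9 in Python 3.11.15.

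Members and lists were chosen with earlier results of these data known. The members were always named. From each list, by role, the 2 genes with the largest rise and the 2 with the largest fall past the threshold were named, and in the stress comparisons, where no list gene passed, the 2 of smallest p. For each member the 2 genes of most similar pattern were named. Markers *Olig2* and *Pdgfrb* were named after their values were seen. Tested on simulated reads for stress against naïve in IP (12512 genes), the fit recovered 90.5% of genes changed by 0.5 and 100% of those changed by 1 on the log2 scale, with 9 false calls. The simulation gave every gene in both groups the same spread beyond counting error, set from naïve IP. These shares therefore do not apply to genes of wider spread, such as *Acan* in stress against naïve in IP (standard error 0.32). In the shallowest library 3 reads equal 0.183 CPM, and such floors cover counting error only, since PCR copies are not independent molecules. Alternatives were other pseudocounts, filters, scalings and weights, limma-voom, *Xist* as a covariate, 1 model of all libraries, and each library left out.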

Additional observations from a re-analysis of the deposited data

Results flagged for a closer look

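A library was compared with the other 3 of its group for each of the 10 genes in each of the 4 groups, 40 sets in all, by the gap to the nearest other value over the range of the 4, against Dixon's 95% critical value. Chance marks about 1 in 20, or 2 sets, and 2 were marked. *Ncan* in stress IP replicate 15 was 2919 CPM, above the other 3 at 2412 to 2491 CPM. *Ptprz1* in naïve INPUT replicate 16 was 139.8 CPM, below the other 3 at 158.4 to 159.6 CPM. No member differed between IP and INPUT in its stress effect after adjustment by limma.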

How the results depend on the processing

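No paired analysis was possible because the replicate numbers are library numbers, no number occurs in more than 1 group, and the animal behind each library is not given. The planned edgeR quasi-likelihood fit was not run, since the deposited values are log2 CPM, and limma-voom on the recovered reads stood in its place.

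The number of members called stayed at 0 in the stress comparisons and the interaction under every alternative run. In IP over INPUT it stayed at 9 or 10 of those tested with each library left out, and the 6 higher and the other called genes kept their direction. *Vcan* in naïve mice reversed after scaling by the median ratio (0.47), quantile normalization (0.45) and limma-voom (0.49). In stressed mice the same 3 settings made *Vcan* pass (0.84, 0.83 and 0.82) and *Acan* fail (−0.48, −0.33 and −0.51). In naïve mice scaling by the median ratio moved the median of all genes in IP over INPUT to −0.00053 and limma-voom to 0.016. Quantile normalization moved it to 0.017 but changed the members unevenly, with *Ncan* from 2.72 to 2.51 and *Tnc* from 3.26 to 4.07. The cause was otherwise not tested. The filter on FPKM left out *Acan* in IP over INPUT of naïve mice, in stress against naïve in IP and in the interaction, and *Tnc* in stress against naïve in INPUT. The filter on 5 CPM left out *Acan* and *Tnc* in those same 2 stress comparisons.

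Uncalled stress effects near 0 turned sign with single libraries left out. The log2 ranges were −0.060 to 0.048 for *Ptprz1* in IP (0.00085 with array weights). In INPUT they were −0.0021 to 0.062 for *Ncan*, −0.032 to 0.048 for *Vcan*, −0.035 to 0.13 for *Hapln1*, −0.092 to 0.054 for *Hapln4* (0.00046 with limma-voom), −0.098 to 0.087 for *Tnc* (0.0028 with quantile normalization) and −0.058 to 0.035 for *Cspg5*. For the interaction they were −0.099 to 0.022 for *Bcan*, −0.019 to 0.14 for *Hapln1* and −0.18 to 0.0083 for *Tnc*.

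The summed levels of the 10 genes in naïve IP, 1095 CPM per kb of exon, were 1384 with the longest transcript as length and 1419 after scaling by the median ratio. Over all genes the stress calls in IP (55) were 143 with array weights, 124 with 1 model of all libraries and 19 without a variance trend, and 17 to 122 with 1 library left out (122 without naïve IP replicate 11). In INPUT (6) they were 50, 2 and 0, and 1 to 32. For the interaction (3) they were 19 with array weights, and 2 to 28. Scaling to library totals and 4 libraries per group limit these values, and for *Acan* in IP and *Tnc* in INPUT so does a depth of under 200 reads.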
